A study of Mus musculus with 20 samples.

Results

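The comparison described here is between repeats of the same organoid line. In each of 6 lines of mouse gastric organoids, the library with the last number (300-2, 650-2, 565-3, 752-3, 794-3 and 801-3) had an expression profile displaced from the other libraries of its line. These 6 of the 20 libraries of the series are called shifted, and the 10 other libraries of the same lines are called sister libraries. The shifted libraries were chosen by their own expression values, so every difference between shifted and sister libraries is given as a description and carries no test. Their choice is visible on the leading axis of within-line variation, which held 60.4% of the variance left after each line was centred. On it the shifted libraries lay between 19.7 and 51.1, the sister libraries between -33.3 and -7.50, and the 4 libraries of the remaining lines, 1269 and 1270, between -0.813 and 0.813.

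The series measured messenger RNA in gastric organoids, 3-dimensional epithelial cultures from the stomach, with and without p53. All lines are labelled with the strain BL/6. Lines 300 (non-dysplastic), 565 and 752 (both dysplastic) were wild type (WT), and lines 650 (non-dysplastic), 794 and 801 (both dysplastic) were p53 knockouts (KO) with the deletion made in vivo. Line 1269 was WT and non-dysplastic, and line 1270 was a non-dysplastic KO made ex vivo. The labels do not say how the repeats of a line were produced, or that lines came from separate animals.

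Ribosomal proteins, respiratory chain subunits and proteasome subunits are encoded by short, abundant mRNAs, whereas scaffold proteins and chromatin regulators are encoded by very long ones. Library preparation from messenger RNA usually selects RNA by its poly(A) tail. Neat1 and Malat1 are long non-coding RNAs held in the nucleus, and Rn45s is the precursor of ribosomal RNA.

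The organoids expressed epithelial markers throughout. Epcam lay between 591.5 and 1147 CPM (counts per 1e6 counts, scaled by TMM, the trimmed mean of M-values) over the 12 columns formed by each shifted library and the sum of its sister libraries. The parietal marker Atp4b and the red blood cell markers Hba-a1 and Hbb-b1 were at 0 in all 12 columns, and the leukocyte marker Ptprc did not exceed 1.14 counts per 1e6. Library totals, in units of 1e6 counts, ran from 5.67 to 11.4 in the shifted libraries and from 10.7 to 13.8 in the sister libraries, so the shifted libraries were shallower as a set. The number of genes with a count was alike, at 14407 to 15055 and 14287 to 15167.

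Short transcripts took a larger share of the counts in every shifted library. With measured genes split by transcript length into 10 classes of equal size, the shortest class held 14.0 to 22.4% of the counts of a shifted library (median 18.1%) and 9.59 to 11.6% of a sister library (median 10.5%). The longest class held 6.03 to 7.97% (median 6.31%) and 8.46 to 11.5% (median 10.2%). Neither share overlapped between the sets, and the libraries of lines 1269 and 1270 lay within the range of the sister libraries, at 10.5 to 11.03% and 10.1 to 11.1%. Cytosolic ribosomal protein mRNAs alone held 5.50 to 10.3% of the counts in shifted and 3.47 to 4.33% in sister libraries. In library 565-3 the displacement was the smallest, and in 794-3 the largest.

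**Figure D1:**
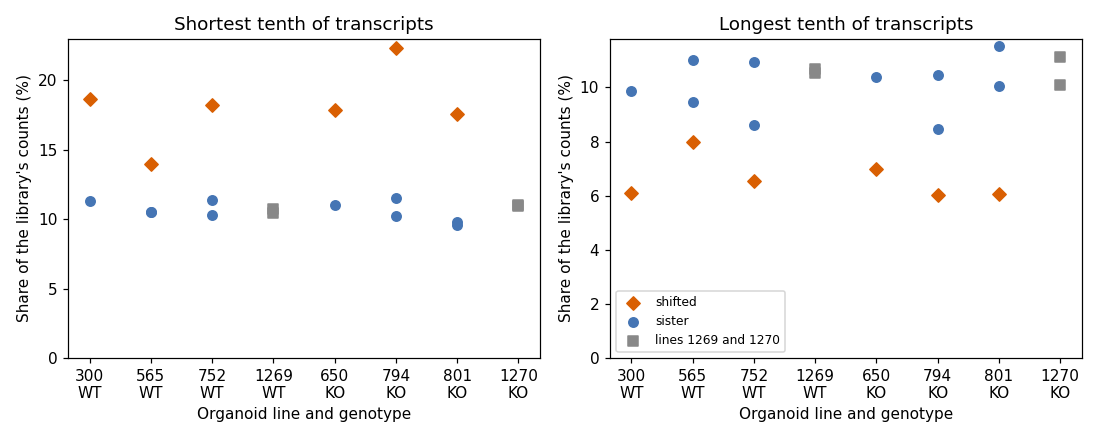
Share of each library's counts (%, y axis) held by the shortest (left) and the longest (right) of 10 length classes of measured genes, for the 20 libraries by line and genotype (x axis). Diamonds are shifted libraries, circles sister libraries and squares the libraries of lines 1269 and 1270. Shifted libraries hold 14.0 to 22.4% in short transcripts, above the 9.59 to 11.6% of their sister libraries.

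Of 12057 genes measured, 1976 were higher in the shifted library, in all 6 lines and by a median of at least 0.5 on the log2(CPM + 1) scale, which is 16.4% of genes. By the same rule 1538 genes, or 12.8%, were lower. Since the shifted libraries were chosen on these values, nothing is read from the size of these shares. They are the shares to set beside the counts of each gene list below. A median of at least 1 was reached by 457 genes upward and 112 downward. The split depends on scaling: 56.2% of the moved genes were higher with TMM and 45.6% with library totals alone, where the median of all genes was -0.06 instead of 0.00.

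Transcript length ordered the differences. From the shortest class of genes (transcripts up to 1218 nucleotides) to the longest (6392 nucleotides or more), the median difference fell at each step, from 0.72 to -0.52. In the shortest class 63.8% of genes were higher and 0.25% lower, and in the longest class 1.58% were higher and 50.5% lower. In each line the shortest class was above 0 (0.38 to 1.01) and the longest below 0 (-0.73 to -0.34). Across 11994 genes, which are not independent replicates, the Spearman correlation of the median difference with transcript length was -0.65 (-0.66 to -0.51 in single lines). With GC content it was 0.01, although line 801 stood apart at 0.32 against -0.09 to 0.03 in the other lines.

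**Figure D2:**
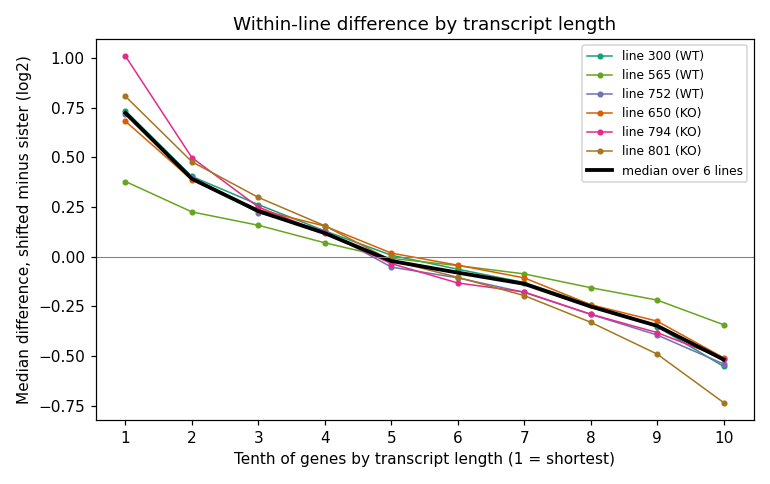
Median difference between the shifted and sister libraries (log2, y axis) by length class (x axis, 1 is the shortest of 10). Thin lines are the 6 organoid lines and the thick line is the median over lines, which falls from 0.72 to -0.52.

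The differences were ordered by both the coding part and the 3' untranslated part (3' UTR). With coding length and 3' UTR length each split into 3 classes, genes in the shortest class of both had a median difference of 0.61, and those in the longest class of both had -0.43. With a short coding part and a long 3' UTR the median was 0.08, and with a long coding part and a short 3' UTR it was -0.20. Among transcripts of at least 3000 nucleotides, 24.3% of 5840 protein-coding genes were lower and 3.89% higher. Of 71 long non-coding RNAs of that length 2.82% were lower and 31.0% higher, with a median of 0.31, against -0.26 for the protein-coding genes. Over all 271 long non-coding RNAs measured the median was 0.45. At the same least length this class thus stood higher, and its own order by length was not examined further.

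Cytosolic ribosomal proteins were the list with the highest median. Of 82 measured, 74 were higher and none lower, with a median of 0.99 (0.51 to 1.40 in single lines, lowest in 565 and highest in 794). Rpl9, a protein of the large subunit, was at 939 to 3105 CPM in shifted libraries (median 1823) and 462 to 570 in sister libraries (median 525). Rpl17 was at 1032 to 3640 (median 2008) against 518 to 648 (median 601). The sets did not overlap for Rpl9, Rpl17, Rpl41 or Rps14, whose median differences were 1.81, 1.70, 1.70 and 1.68. Here and below, the level of a gene in sister libraries is that of the sum per line. Single sister libraries can lie outside these ranges. Genes were named for large differences, so separate sets are likely among them. The share of all genes with separate sets is not given.

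The mitochondrial translation and respiration genes encoded in the nucleus moved the same way. Of 76 mitochondrial ribosomal proteins 60 were higher and none lower (median 0.78), and of 77 respiratory chain subunits 61 were higher and 1 lower (median 0.89). Atp5e, the epsilon subunit of ATP synthase, was at 178 to 702.5 CPM (median 361) in shifted and 75.4 to 114 (median 102) in sister libraries, without overlap. Uqcrh, a subunit of complex III, differed by 1.59 and Ndufb8, of complex I, by 1.53. Mrpl41, Mrpl14 and Mrpl57 differed by 1.49, 1.45 and 1.43. The genes encoded by mitochondrial DNA were not measured, so the RNA of the organelle itself is not described.

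Proteasome subunits were also higher, and the transcription and splicing lists less so. Among 37 proteasome subunits 21 were higher and none lower (median 0.59), led by the 20S subunits Psma7, at 1.33, Psma3, at 1.16, and Psma6, at 1.16. Of 41 subunits of RNA polymerase II and Mediator 19 were higher and 6 lower (median 0.39), with Polr2k at 1.29 and Med21 at 1.20. Of 51 splicing factors 11 were higher and 4 lower (median 0.17, with lines 565 and 801 just below 0), and the highest were Snrpg at 1.41 and Snrpe at 1.25, small proteins of the spliceosome core. Pfdn5, a prefoldin subunit that hands new proteins to chaperonin, differed by 1.79.

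Translation factors went both ways. Of 59, 13 were higher and 11 lower, with a median of 0.19, beside 16.4% of all genes higher and 12.8% lower. Eef1a1, which brings aminoacyl-tRNA to the ribosome, was at 8160 to 14373 CPM in shifted libraries (median 11266) and 5393 to 6553 in sister libraries (median 6031). Eef2, which moves the ribosome along, was at 2010 to 3237 (median 2414) against 3518 to 4263 (median 4027). Both pairs of sets were separate, in opposite directions, with differences of 0.85 and -0.75. Their transcripts are 1794 and 3089 nucleotides long. The initiation factor subunits Eif3i and Eif3h and the elongation factor subunit Eef1b2 were higher, by 1.05, 1.02 and 1.04.

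Nuclear and non-coding RNAs were higher although some are long. Neat1, which builds paraspeckles, had the largest median difference of the named genes, at 2.45 (0.99 to 2.97). It was at 233 to 747 CPM in shifted libraries (median 465.7) and 80.1 to 117 in sister libraries (median 83.5), and its longest transcript has 20771 nucleotides. Malat1, of nuclear speckles, was at 79.1 to 227 (median 144) against 30.2 to 67.8 (median 48.8) in the sums of sister libraries, a difference of 1.55. Single sister libraries, scaled with all 20 libraries, ran from 22.9 to 83.3 CPM and overlapped the shifted libraries, at 80.2 to 231. Against single sister libraries the Malat1 difference ranged from -0.04 (565-3 minus 565-2) to 2.66, and it was 0.09 for 801-3 minus 801-2. Of 12 long non-coding RNAs on the list 8 were higher and 1 lower (median 0.80), with Snhg1, a host of small nucleolar RNAs, at 1.36. High levels of both nuclear RNAs also occurred outside the shifted set: over the 4 libraries of lines 1269 and 1270, Neat1 reached 343 and Malat1 216 CPM, which is above the lowest shifted library of each. Firre, a nuclear RNA picked after its values were seen, differed by 1.57.

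Rpph1 and Rn45s, which lack a poly(A) tail, were also higher. Rpph1, the RNA of RNase P, was at 6.57 to 40.4 CPM in shifted libraries (median 23.5) and 2.38 to 4.63 in sister libraries (median 3.59), a difference of 2.32 without overlap. Of 12 genes annotated as small RNAs 9 were higher and none lower (median 0.90). Rn45s, picked after its values were seen, was at 2030 to 8864 CPM (median 6110) against 1337 to 3142 (median 1823). Its sets overlapped, and its difference ran from 0.18 to 2.62 over lines. These levels moved with the ribosomal protein and length results, and their part in those results was not tested.

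**Figure D3:**
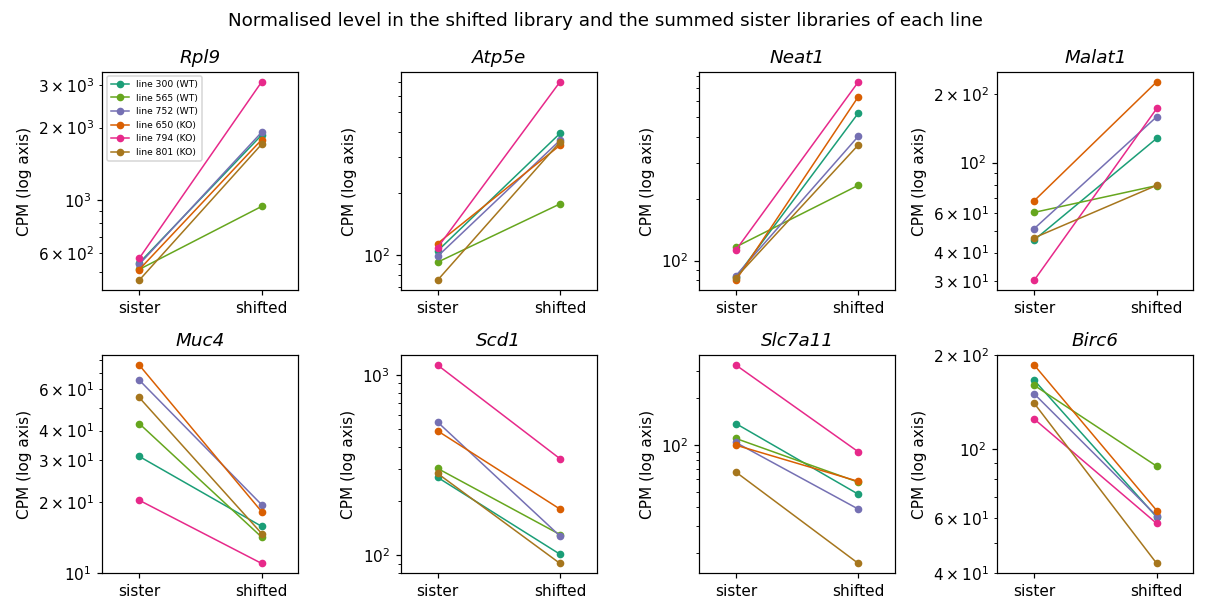
Level (CPM, log y axis) of 8 genes in the summed sister libraries and the shifted library of each of 6 lines (joined points, coloured by line). Rpl9, Atp5e, Neat1 and Malat1 are higher and Muc4, Scd1, Slc7a11 and Birc6 lower in the shifted library of each line.

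Giant scaffold genes and chromatin regulators were lower. Of 47 giant cytoskeletal and scaffold genes 34 were lower and none higher (median -0.83), and of 62 chromatin regulators 41 were lower and none higher (median -0.68). The size of the giant gene difference depended on the sister library: against library 1 it was -0.22 (565), -0.28 (752), -0.29 (794) and -0.75 (801), and against library 2 it was -0.75, -1.09, -1.03 and -1.31. Birc6, a very large ubiquitin ligase that inhibits apoptosis, was at 42.9 to 88.1 CPM in shifted libraries (median 60.7) and 125 to 186 in sister libraries (median 155), without overlap. Mycbp2, also a ubiquitin ligase, differed by -1.29 and Vps13c, a lipid transfer protein, by -1.25. Kmt2c, a histone H3 lysine 4 methyltransferase, differed by -1.26, the acetyltransferase Crebbp by -1.09 and the remodeller Chd9 by -1.06.

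The genes with the lowest medians were of mixed function. Muc4, a membrane mucin, was at 10.95 to 19.4 CPM in shifted libraries (median 15.2) and 20.3 to 75.8 in sister libraries (median 49.1), a difference of -1.62. Tenm4, a teneurin, differed by -1.46, the kinase Rps6ka3 by -1.43, the carboxypeptidase Cpd by -1.34, Setbp1 by -1.34 and the bromodomain protein Brwd3 by -1.295. Complement C3 differed by -1.40, and its sets overlapped. At the other end, Spink4, a secreted protease inhibitor of mucous cells, differed by 2.12, Atg9b, an autophagy protein, by 1.82, Dnajc15 by 1.68, Smim6 by 1.66 and Tmem256 by 1.61.

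The median of lipid synthesis genes was below 0 in each of the 6 lines, and that of hypoxia and glycolysis genes in 5 of 6. Of 31 cholesterol and fatty acid synthesis genes 16 were lower and none higher (median -0.51, and -0.39 after the median of the same length class was subtracted). Scd2, a stearoyl-CoA desaturase, was at 986 to 1312 CPM in shifted libraries (median 1187) and 2318 to 3849 in sister libraries (median 2941), without overlap. Scd1 differed by -1.54 and Acaca, acetyl-CoA carboxylase, by -1.14. Of 32 hypoxia and glycolysis genes 8 were lower and 1 higher (median -0.32, and -0.43 after the same subtraction). Line 300 was at 0.15, and at -0.015 after the subtraction. Within this list the hexokinases Hk1 and Hk2 differed by -1.07 and -1.02.

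The stress lists did not move as a block, and their counts stand beside 16.4% of all genes higher and 12.8% lower. Of 32 immediate early genes 3 were higher and 2 lower (median -0.03), of 35 heat shock genes 6 and 2 (median 0.10), and of 29 unfolded protein response genes 5 and 2 (median 0.10). Of 33 integrated stress response genes 1 was higher and 10 lower (median -0.19), among them the cystine transporter Slc7a11 at -1.45, Aldh1l2 of folate metabolism at -1.09 and the tRNA synthetase Eprs at -0.86. Within heat shock genes Hspe1, the mitochondrial co-chaperonin, was at 1.20 and the chaperonin subunits Cct4 and Cct5 at 0.77 and 0.65. Gadd45b and Cyr61 were higher, by 0.82 and 0.75, and Sdf2l1 of the endoplasmic reticulum by 1.02. Of 32 NRF2 and glutathione genes 6 were higher, with the glutathione peroxidase Gpx4 at 1.34, and 5 lower (median -0.09, and -0.31 after the length-class median was subtracted).

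Of 50 p53 targets 7 were higher and 2 lower, with a median of 0.14, beside 16.4% of all genes higher and 12.8% lower. Rps27l, Gpx1 and Ddb2 differed by 1.39, 1.39 and 1.02, and all are short, at 499, 1072 and 1557 nucleotides. Interferon response genes had a median of -0.09 over 32 genes, but -1.14 in line 794 against -0.22 to 0.21 in the others. Dtx3l and Parp14, both of this response, differed by -0.72 and -0.66.

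Proliferation genes differed by line. The S phase list had a median of -0.08 and the G2/M list -0.04, with line 650 at 0.62 and 0.64. Members went both ways: the centromere gene Cenpa, with 1466 nucleotides, was higher by 0.99, and Mki67, a proliferation marker with 10061 nucleotides, was lower by 0.99, at 113 to 205 CPM (median 170) against 229 to 407 (median 344). Gins2 and Tyms, of DNA replication, were higher by 1.11 and 0.79 with reference transcripts of 3900 and 3163 nucleotides. By these reference lengths they did not follow the order, but the transcript forms present in the organoids were not measured.

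Gastric lineage lists were small and went in different directions, beside 16.4% of all genes higher and 12.8% lower. Of 14 mucous neck and SPEM (spasmolytic polypeptide-expressing metaplasia) genes 7 were higher and 2 lower (median 0.32), among them Tff2, the spasmolytic polypeptide, at 1.13, Wfdc2 at 1.09 and Glipr1 at 1.04. After the length-class median was subtracted the list stood at -0.06. The neck cell marker Muc6 went the other way, with overlap between the sets. In CPM scaled by library totals alone, it was at 56.9 to 154 in shifted libraries (median 79.5) and 73.1 to 283 in sister libraries (median 168). Of 12 pit cell genes 1 was higher, Gkn3 at 0.66, and 2 were lower, including Dpcr1 at -0.72. Of 8 chief cell genes 2 were higher and 1 lower (median 0.17, above 0 in 4 lines), the lower one being the transcription factor Bhlha15 at -0.98. Bhlha15 was low in line 794, at 0.471 CPM in the shifted and 4.29 in the sister libraries. After the length-class median was subtracted the chief cell list stood at -0.11, above 0 in 3 lines. Of 9 parietal cell genes 3 were lower and none higher (median -0.29), among them the potassium channel Kcnq1 at -0.63. Of 3 tuft cell genes 2 were lower (median -0.77), among them the actin regulator Avil at -0.77, and the 2 endocrine genes measured had a median of -0.36. The parietal, tuft and endocrine medians were below 0 in all 6 lines, but rest on 9, 3 and 2 genes. Other markers of these cells were near 0, went both ways and overlapped between the sets. In CPM scaled by library totals alone, shifted and sister medians were 1.13 and 0.407 for Gast and 0.628 and 0.363 for Sst. They were 0.673 and 0.553 for Trpm5 and 1.38 and 1.17 for Atp4a. Chga (0.532 and 0.873) and Pou2f3 (0.195 and 0.321) were lower in the shifted libraries. Of 19 stem and Wnt genes 5 were lower and none higher (median -0.33), with Axin2 at -0.82 and the receptor Ephb2 at -0.78.

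Of 26 epithelial core genes 10 were lower and 1 higher, beside 12.8% of all genes lower and 16.4% higher. Their median was -0.29, and also -0.29 after the length-class median was subtracted. The transcription factors Ehf and Foxa1 were at -1.17 and -0.80, the junction protein Tjp1 at -0.84 and Cdh1, E-cadherin, at -0.55, whereas Epcam was at 0.27. Keratins had similar medians in both sets. In CPM scaled by library totals alone, shifted and sister medians were 3404 and 3477 for Krt8, 2464 and 2403 for Krt18, and 4224 and 4150 for Krt19. Of 20 YAP target genes 6 were higher and none lower (median 0.23), with Ankrd1 at 0.89 and Tnfrsf12a at 0.87. In bulk RNA, fewer cells of a type and less RNA per cell cannot be told apart. Transcript length ordered the differences over all genes, and its part in these values was not tested.

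Markers of other cells moved beside these results. The summed level of 19 immune genes, of which 7 were at 0, was lower in the shifted library of each line. It was 18.5 to 36.0 counts per 1e6 in shifted and 28.3 to 49.8 in sister libraries. Cd68, 1 of 2 immune genes measured, was a large part of it. Its level was 13.3 to 21.2 CPM in shifted and 19.5 to 36.7 in sister libraries, and lower in 5 of 6 lines. The summed level of 21 stromal genes, none of them at 0, was 18.4 to 512 against 16.8 to 201. That sum was higher in 5 of 6 lines, most in 801. In line 801 Tagln and Acta2, contractile genes, were at 236 and 196 CPM in the shifted library and 69.4 and 80.4 in the sister libraries, so they made up most of that sum. They were the only 2 of 8 measured stromal genes that were higher in all 6 lines with a median of at least 0.5 (1.00 and 0.77), none was lower, and the list median was 0.00, above 0 in 3 lines. The collagen Col1a1 was at a median of 2.59 counts per 1e6 in shifted and 5.06 in sister libraries. The part of these cells in the other results was not tested.

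**Figure D4:**
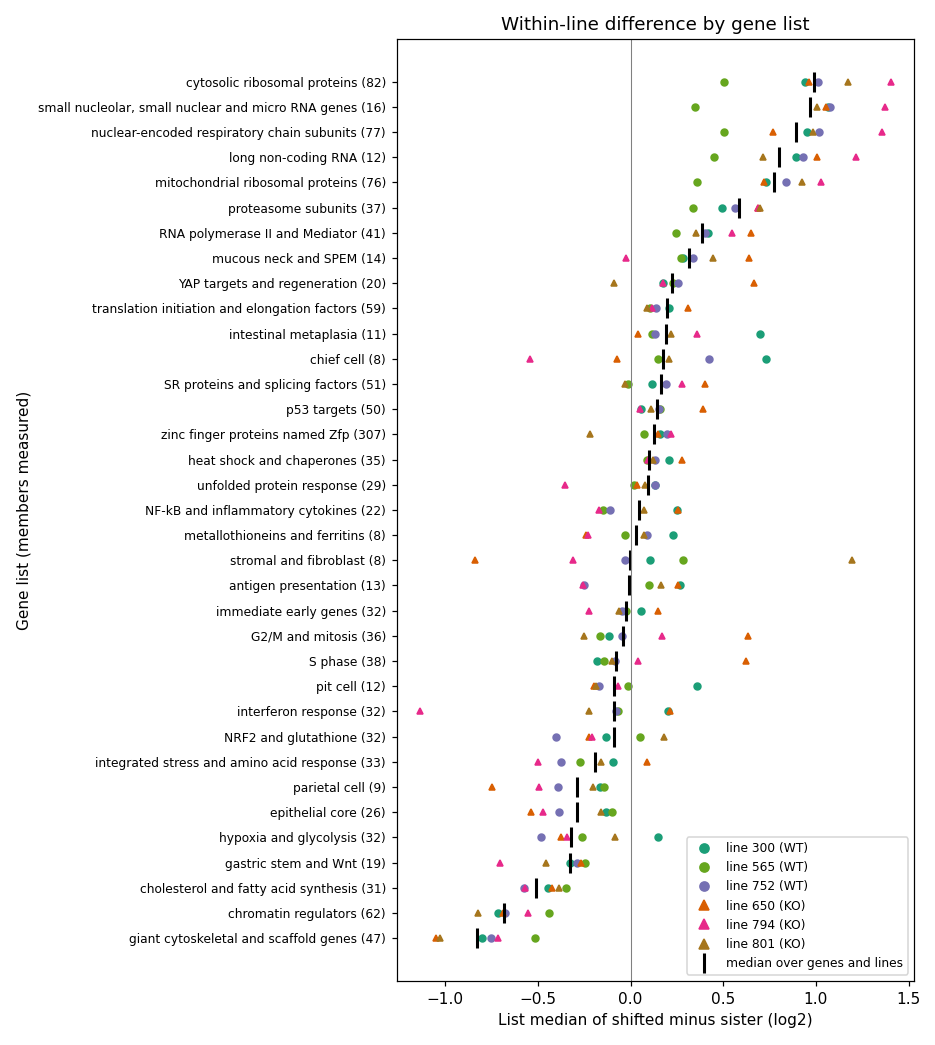
Median difference between shifted and sister libraries (log2, x axis) for each gene list with at least 8 measured members (y axis, number in brackets). Circles are WT lines, triangles KO lines, and the black bar is the median over genes of the median over lines. Ribosomal proteins lie at 0.99 and giant scaffold genes at -0.83.

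Repeats with no shifted library showed a weaker order by length and a smaller ribosomal difference. Since the shifted libraries were chosen by their distance from their lines, closer pairs without them follow from that choice and are no test. Over the 6 pairs of libraries of one line without a shifted library, 3.49 to 20.6% of genes differed by at least 0.5, against 11.3 to 51.6% in the 10 pairs with one. These ranges overlap: the repeats of lines 1269 (19.5%) and 1270 (20.6%) differed in more genes than library 565-3 did from either sister library (11.3 and 15.0%). The correlation with length was -0.09 to 0.39 in the former and -0.64 to -0.47 in the latter. For library 2 minus library 1 it was 0.16 (565), 0.39 (752), 0.34 (794) and 0.19 (801), and its sign depends on which library is subtracted. In lines 752 and 794 the median of the longest class was 0.28 in each and that of the shortest -0.12 and -0.13. For 565-3 minus 565-1 the longest class was at -0.23. The ribosomal protein median was -0.22 to 0.18 in pairs without a shifted library. Giant genes also differed between sister libraries: their median was higher in library 2 than in library 1 of each dysplastic line, by 0.61 (565), 0.82 (752), 0.77 (794) and 0.49 (801). Malat1 ranged from -2.17 to 1.68 over the 6 pairs.

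Genotype comes from the labels and was not used to choose the shifted libraries, so KO and WT lines were tested within each set, with 3 lines per genotype. Trp53, which encodes p53, was lower in KO lines in both. In shifted libraries it was at 101, 146 and 95.6 CPM in WT lines 300, 565 and 752 and at 32.4, 11.04 and 17.7 in KO lines 650, 794 and 801. In sister libraries it was at 119, 155 and 129 against 22.4, 5.37 and 22.5. The genotypes did not overlap in either set, and edgeR's log2 fold change was -2.52 ± 0.38 (SE, adjusted p = 0.101) in shifted and -3.02 ± 0.56 (adjusted p = 0.412) in sister libraries, neither past the threshold of 0.05. DESeq2 gave adjusted p = 1.05e-08 and 7.18e-07.

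In shifted libraries edgeR's quasi-likelihood test called 5 of 12099 genes (0.0413%), all higher in KO lines. Cdkn2a, a cyclin-dependent kinase inhibitor locus, was at 19.7, 34.1 and 30.8 CPM in WT and 85.0, 378 and 211 in KO lines, a log2 fold change of 2.89 ± 0.31 (SE, adjusted p = 0.0311). Fstl1, a secreted glycoprotein, was at 0, 0.428 and 0.533 CPM against 7.42, 16.9 and 23.1 (adjusted p = 0.0182). Htra1, a secreted serine protease, Uchl1, a ubiquitin hydrolase, and Enpp2, autotaxin, had fold changes of 3.01, 4.44 and 2.90 (adjusted p = 0.0187, 0.0191 and 0.0311). WT and KO lines were separate for each of these except Enpp2, where KO line 650 (3.41) lay below WT line 565 (5.05).

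In sister libraries edgeR called 0 of 12726 genes (0%), with 841 at an unadjusted p under 0.05. The same 5 genes had log2 fold changes of 2.59 (Cdkn2a), 4.36 (Fstl1), 2.56 (Htra1), 3.55 (Uchl1) and 3.73 (Enpp2). DESeq2 called 191 genes in shifted (1.58%) and 175 in sister libraries (1.38%). The 5 edgeR calls depended on the lines used: without line 565 or line 752 none was called, and without line 794 there were 308 higher and 114 lower. Without the term for dysplasia none was called.

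**Figure D5:**
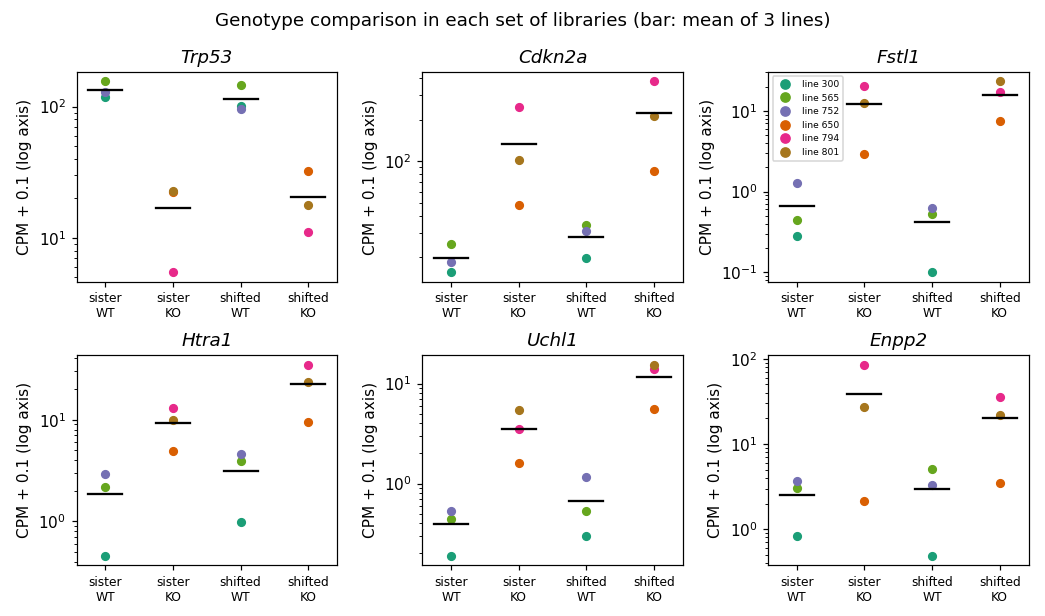
Level (CPM + 0.1, log y axis) of Trp53 and of the 5 genes called in shifted libraries, in WT and KO lines of the sister and shifted sets (x axis). Each point is a line and the bar is the mean of 3 lines. KO lines are lower for Trp53 and, except for Enpp2 in line 650, higher for the 5 genes.

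The difference between shifted and sister libraries was not shown to depend on genotype. In the interaction test 0 of 12057 genes passed in edgeR (lowest adjusted p 0.784, 699 at an unadjusted p under 0.05) and 0 in DESeq2. For Trp53 the interaction was 0.67 ± 0.28 (SE, adjusted p = 0.784). Of 50 p53 targets 35 were lower in KO lines in shifted libraries (median -0.51) and 39 in sister libraries (median -0.46). Over all genes 48.0% and 50.3% were lower.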

How the data were processed

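Per the labels' protocols, an mRNA kit was used on 100 ng of RNA for each library. The authors deposited raw counts of reads per gene symbol for 24047 genes. The submitters' processing notes name bcl2fastq, STAR 2.5 and mm9. For the gene counter, the annotation and strand, nothing is given in the sources used here. Reads of overlapping genes and near-identical copies, such as ribosomal protein pseudogenes, are therefore uncertain. No pair of columns was treated as one library.

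Sister libraries were summed per line, giving 12 columns. Genes were filtered with filterByExpr and scaled by TMM, and differences are of log2(CPM + 1) within a line. A gene counted as moved when its sign was the same in 6 of 6 lines and its median at least 0.5. Genotype was tested with edgeR 4.0.16 (R 4.3.3, limma 3.58.1), robust quasi-likelihood, dysplasia as a covariate and Benjamini-Hochberg adjustment, with DESeq2 1.42.0 as an alternative. An SE is the fold change divided by the square root of F. Since lines may not be separate animals, p-values reflect the spread among lines alone, and that may be technical. The procedures were run on simulated counts with a fixed dispersion, without line effects or an order by length. That checks the procedures and not how well the tests suit these lines.

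Transcript lengths came from GENCODE annotation of GRCm38, used for names and lengths only since the build differs from mm9. Of 24047 symbols 23590 had a length. The length of a gene is that of its APPRIS principal transcript. The longest transcript was used first and was replaced after its results had been seen, because it gave several short genes the length of a rare isoform. Both and a further definition are compared in the closing section.

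The shifted libraries and the gene lists were chosen with earlier results of these data known. Named genes are the 12 highest and 12 lowest median differences with one sign in 6 lines and at least 20 CPM, the 3 largest of each list with at least 10 CPM, and for genotype Trp53, Cdkn2a and called genes. Firre, Eef1a1, Eef2, Rn45s, Cdh1, Epcam, the keratins, Muc6 and the other parietal, tuft and endocrine markers given beside their lists were chosen after their values were seen.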

Additional observations from a re-analysis of the deposited data

Results flagged for a closer look

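Among 146 groups of values examined, 11 had 1 value far from the rest, and chance marks about 1 group in 20. Within lines, the median difference of the list of small RNA genes and their host genes was 0.35 in line 565 against 1.00 to 1.37 elsewhere, and that of Zfp zinc finger genes was -0.22 in line 801 against 0.07 to 0.22. The unfolded protein response list was at -0.35 in line 794 (0.02 to 0.13 elsewhere), as were the interferon list at -1.14 (-0.22 to 0.21), Dtx3l at -1.75 (-0.78 to -0.39) and Ankrd1 at 2.06 (0.65 to 1.09). In line 650 the p53 target list was at 0.39 (0.05 to 0.16) and the S phase list at 0.62 (-0.18 to 0.04). The pit cell list was at 0.36 in line 300 (-0.20 to -0.01). The correlation of the difference with GC content was 0.32 in line 801 (-0.09 to 0.03), whose shifted library also had the lowest total, 5.67 in units of 1e6 counts, against 9.38 to 11.4 in the other shifted libraries.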

How the results depend on the processing

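With a median of at least 1, moved genes numbered 457 higher and 112 lower. Leaving out each line gave 1879 to 2195 higher and 1410 to 1797 lower. The correlation with length was -0.65 with the principal transcript, -0.66 with the longest and -0.54 with the median over transcripts, where the median of the shortest class fell from 0.72 to 0.37. Both other definitions were added after seeing the data. So was subtracting the median of the same length class, which left 0.42 for cytosolic and 0.37 for mitochondrial ribosomal proteins, 0.30 for respiratory chain, 0.16 for proteasome, -0.36 for giant genes, -0.22 for chromatin regulators and -0.39 for cholesterol genes, and turned translation factors to -0.032 and heat shock genes to -0.017. For KO against WT, DESeq2 called 137 higher and 54 lower in shifted and 127 and 48 in sister libraries. Without a filter edgeR called 103 higher and 32 lower in shifted libraries. Leaving out a line gave 0 to 308 higher and 0 to 114 lower there, and 0 in sister libraries. Among shifted libraries dysplasia equals the replicate number, so the fit without that term is the one with no replicate block. It called 0 genes in each set. For the interaction 1 gene was lower without a filter, and 0 to 1 when a line was left out. The causes were not tested. Shifted libraries are the shallower set, and 3 lines per genotype limit the tests.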
